A study of Mus musculus with 16 samples.

Results

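The genes described here encode the proteins of the mitochondrial ribosome. They were chosen by name and level: protein-coding genes whose symbol in the GENCODE M21 annotation starts with Mrpl or Mrps and a digit, with a level of at least 1 CPM (a gene's counts scaled to a common library total) in 4 or more of the 16 libraries. Of 78 protein-coding genes with such a symbol 77 met the rule, out of 54838 gene identifiers in the files and 10588 protein-coding genes at the same level. The gene left out was Mrpl53 (chr6:83109040-83109939, GRCm38), which reached at most 0.0458 CPM and shares 88.0% of its exon bases with Gm42688 on the same strand. Just inside the rule stood Mrpl23, with a mean of 3.22 CPM over all libraries. The 5 pseudogenes with matching symbols were not counted as members, and the highest of them, Mrps36-ps1, reached 2.04 CPM. By their known place in the particle 50 members belong to the large subunit and 26 to the small subunit. Mrps30 and Mrps18a are among the 50 in spite of their names. Mrps36, counted in neither, is better known as a component of the 2-oxoglutarate dehydrogenase complex.

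Mitochondria carry their own ribosome, which translates the few messenger RNAs transcribed from mitochondrial DNA. The products are core subunits of the respiratory chain and of ATP synthase. Its ribosomal RNAs come from mitochondrial DNA, while every one of its proteins is encoded in the nucleus, made in the cytosol and imported. Some of these proteins descend from bacterial ribosomal proteins, and others are found only in mitochondria. By this ancestry 48 members were of a bacterial family and 28 were specific to mitochondria.

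The cells were bone marrow-derived macrophages of Apoe-deficient mice of the strain labelled C57BL/6J, with the genotype label B6.129P2-Apoetm1Unc/J, so the control cells carry the same deficiency as all others. Each of the 4 groups holds 4 libraries. DMSO cells were the controls, and TNFα cells received 50 ng/ml mouse TNFα for 24 h. TMP195+TNFα cells received 5 µM TMP195, an inhibitor of class IIa histone deacetylases, for 1 h before the same TNFα. TPCA-1+TNFα cells received 500 nM TPCA-1, an inhibitor of the IκB kinase IKK2, for 1 h before it. No group received an inhibitor without TNFα, and the labels do not say whether the TNFα cells also received DMSO. Nor do they state if the replicates are different animals or cultures, so p-values measure only the spread between these libraries, which may be technical.

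Counts on genes came to between 18562773 and 31596572 in 15 libraries and to 7489066 in TPCA-1+TNFα replicate 2. Unmapped reads made up 44.0% in that library and no more than 7.11% in the others, and 2.59% of its counts were mitochondrially encoded mRNA, against 3.45% to 5.71%. The fits are therefore given with and without it. Apoe itself stood at 0.0487 to 0.485 CPM. All 8 macrophage markers were present, with a summed level of 16847 to 25943 CPM in DMSO, 17830 to 25695 in TNFα, 12974 to 17956 in TMP195+TNFα and 12745 to 20894 in TPCA-1+TNFα. Lymphocyte markers summed to at most 0.668 CPM, mast cell markers to 0.381, erythroid markers to 0.0979 and dendritic cell markers to 2.00. The 8 neutrophil markers summed to 0.904 to 2.34 CPM in DMSO, 46.6 to 85.0 in TNFα, 24.8 to 48.0 in TMP195+TNFα and 13.8 to 41.4 in TPCA-1+TNFα. S100a8 made up nearly all of it, and the defining markers S100a9, Ly6g, Elane and Ngp were listed at 0 in every library. Of the 5 stromal and endothelial markers Pecam1 stood highest, at 15.1 to 38.2 CPM in TPCA-1+TNFα against 3.29 to 10.4 elsewhere, while Col1a1, Col1a2 and Col3a1 were at or below 0.131 CPM.

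The start regions of 3 members are shown, taken from a list of members called higher with TNFα. The others on that list had no matched window or too few bases before the start outside annotated exons. Mrpl52 had the lowest adjusted p of all members after TNFα, and Mrpl30 shares its start region with a neighbouring gene. Mrps27 carries a motif at nearly the same place as Mrpl52, which was seen after the choice. The sequences are those bases upstream of the RefSeq start site (GRCm38.p6) that lie in no annotated exon, read on the strand of the gene, with matches to the ETS motif CCGGAAG or its reverse complement in capitals.
Mrpl52, 250 bases, chr14:54426659-54426908, plus strand: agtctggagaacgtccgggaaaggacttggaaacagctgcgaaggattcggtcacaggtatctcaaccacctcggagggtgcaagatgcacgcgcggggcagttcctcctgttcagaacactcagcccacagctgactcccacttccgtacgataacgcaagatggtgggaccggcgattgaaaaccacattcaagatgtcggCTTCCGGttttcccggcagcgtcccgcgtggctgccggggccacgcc
Mrpl30, 65 bases, chr1:37890412-37890476, plus strand: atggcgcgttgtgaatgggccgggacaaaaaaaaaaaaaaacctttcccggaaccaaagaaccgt
Mrps27, 80 bases, chr13:99344706-99344785, plus strand: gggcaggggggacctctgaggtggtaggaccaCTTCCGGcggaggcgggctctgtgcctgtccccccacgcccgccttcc
The Mrpl52 match begins 47 bases before the start site and the Mrps27 match 48 bases before it, both on the reverse strand. The 65 bases before Mrpl30 are the whole of the gap to the start of Mitd1, and they hold no match. In the same way the 80 bases before Mrps27 reach to the start of Ptcd2, which encodes a mitochondrial RNA-processing protein.

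RefSeq windows of 250 bases before to 50 after the start were matched for 68 of the 77 members. For a member the start nearest to its GENCODE start was taken, and for an expressed gene the first start listed. All windows hold every start listed, so the percentages below do not rest on the same choice of window. The ETS motif, bound by factors such as GABPA that act on many nuclear genes for mitochondria, was found in 33.8% of the members' windows, in 8.86% of all 32851 windows and in 20.5% of the 8509 windows of protein-coding genes at the same level. AAGATGGC, the core bound by YY1, was in 17.6% of the members' windows, 2.75% of all and 5.25% of expressed ones. The NRF1 motif was in 4.41%, 0.971% and 2.33%, and TATAAA in 5.88%, 13.6% and 6.60%. The NF-kB motif was in 7.35%, 8.46% and 9.99%, the E-box CACGTG in 7.35%, 7.15% and 10.8% and the ISRE in 4.41%, 3.44% and 3.36%. Both strands were searched and motifs could overlap. The median GC content was 58.2% in the members' windows, 52.7% in all and 61.0% in those of expressed genes. A match says only that the letters are present.

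The members are spread over 17 chromosomes, with at most 11 on one. A protein-coding gene that starts within 1000 bases and runs away from the member without overlap was found for 18 of 77 members (23.4%), against 11.02% of the 10588 expressed protein-coding genes. Other genes start as close but overlap the member on the opposite strand, among them Ndufs6 beside Mrpl36 and Ndufb5 beside Mrpl47, which encode complex I subunits, and Twnk, the mitochondrial DNA helicase, beside Mrpl43. Mrpl46 and Mrps11, members of different subunits, overlap each other in this way, with starts 412 bases apart. Exon bases were shared with a same-strand gene in 7 members, most in Mrps34 (37.0%, with Nme3), Mrps18c (23.2%, with Gm43511) and Mrps6 (19.9%, with Slc5a3 and Gm49711), so the levels of these genes are less certain. Members numbering 27 share exon bases with a gene on the opposite strand, whose reads the stranded counts keep apart.

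As a group the members were expressed at a moderate level that changed little between libraries. Together they took 0.296% to 0.346% of all counts, at 0.296% to 0.325% in DMSO, 0.322% to 0.335% in TNFα, 0.319% to 0.345% in TMP195+TNFα and 0.322% to 0.346% in TPCA-1+TNFα, so the range of DMSO overlaps that of each other group. This overlap rested on DMSO replicate 2 alone. The other DMSO libraries, at 0.296% to 0.309%, lay below every library with TNFα. TPCA-1+TNFα replicate 2 had the highest share of all, and also the highest share for cytosolic ribosomal protein genes, 5.97% against 3.94% to 5.04%. Large subunit members took 0.1990% to 0.2193% of counts in DMSO and at least 0.2195% in every other library, without overlap. The highest DMSO share, of replicate 2, thus lay only just below the lowest of the others. Abundant genes such as Mrpl52 weigh most in such a sum, and most large subunit genes were not called with TNFα, as given below. For small subunit members the DMSO share of 0.0902% to 0.104% overlapped that of the other groups (0.0929% to 0.107%). Mean levels of single members ran from 3.22 CPM to 134.9 CPM, with a median of 36.5.

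Per kilobase of exon the members' mean levels ran from 0.660 to 141 CPM per kb, with a median of 15.5 (17.8 for the large and 10.997 for the small subunit). The highest mean was that of Mrps21, a small subunit protein of a bacterial family, at 141 CPM per kb, and Mrpl52 followed at 122. Their SD over the 16 libraries was 14.3 and 28.6, and their means differed by less than the SD of Mrpl52. An SD over all libraries includes differences between the groups and does not measure the spread of replicates. Below them came Mrps15, another bacterial-family protein of the small subunit, at 60.8 and Mrpl34 at 60.3, which differed by less than their SD over the 16 libraries (10.6 and 7.46). At the lower end Mrpl23, a large subunit protein near the exit of the peptide tunnel, stood at 0.660. Mrps25 stood at 1.89 and Mrps35 at 1.94. The values per kb divide by the length of all annotated exons, which overstates the length of the RNA for genes with long rare exons.

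**Figure D1:**
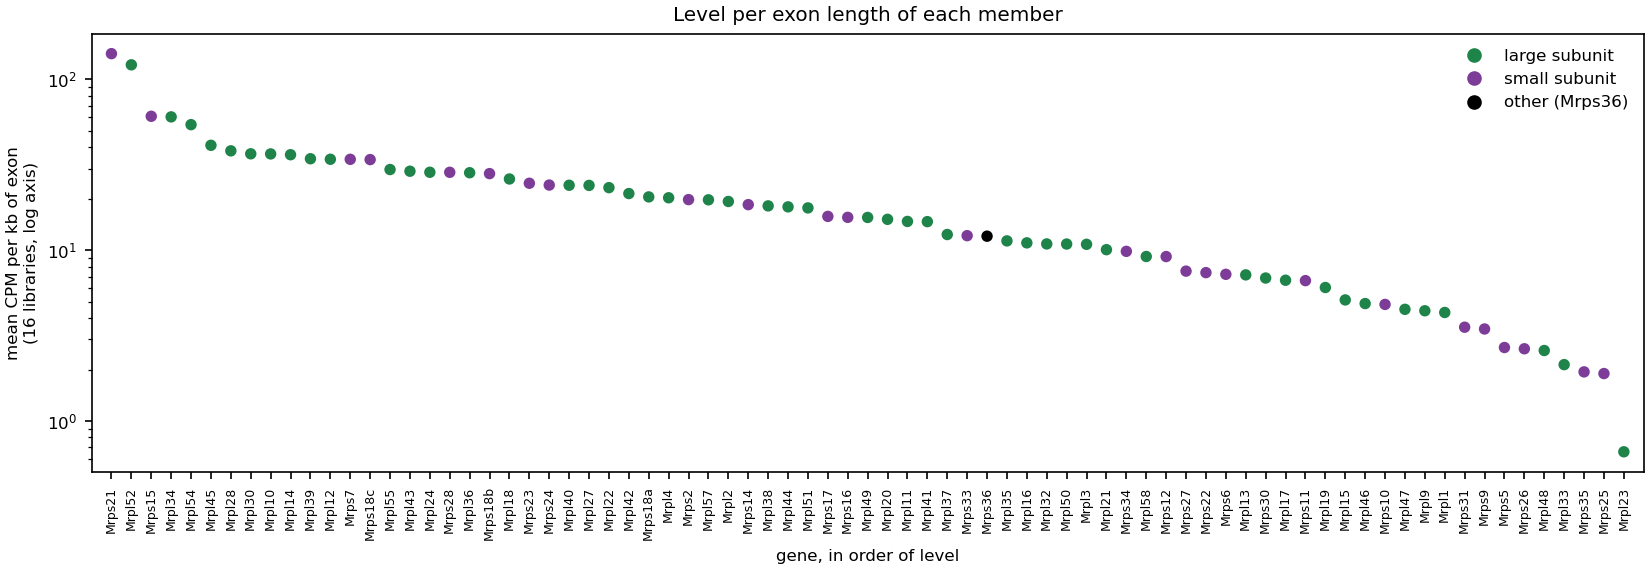
Mean level of each of the 77 members over the 16 libraries, in CPM per kb of annotated exon on a log axis, ordered from high to low and coloured by subunit. Levels run from 141 (Mrps21) to 0.660 CPM per kb (Mrpl23), with members of both subunits along the whole range.

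How TNFα alone changed these genes is the question of the first comparison. Members moved little, and those that passed the test were all higher: Mrpl52, Mrpl39, Mrpl38 and Mrpl30 of the large subunit rose most clearly, with log2 fold changes between 0.46 and 0.94. In the edgeR fit 10 of 77 members (13.0%) were higher and 0 lower at an adjusted p below 0.05, while 10.9% of all 12612 genes tested were higher and 12.4% lower. The members' share of higher calls was near that of all genes. At an unadjusted p below 0.05, 17 members were higher and 1 lower. DESeq2 called 15 higher and 0 lower, and limma with sample weights 20 and 1. Here and below, counts at an unadjusted p, by DESeq2 or by limma stand without the share of all genes. They are not read as a result about the members. The median log2 fold change of the members was 0.10, against 0.00 for all genes, and 58 of 77 were above 0. Of the large subunit genes 6 of 50 rose and of the small subunit genes 4 of 26.

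**Figure D2:**
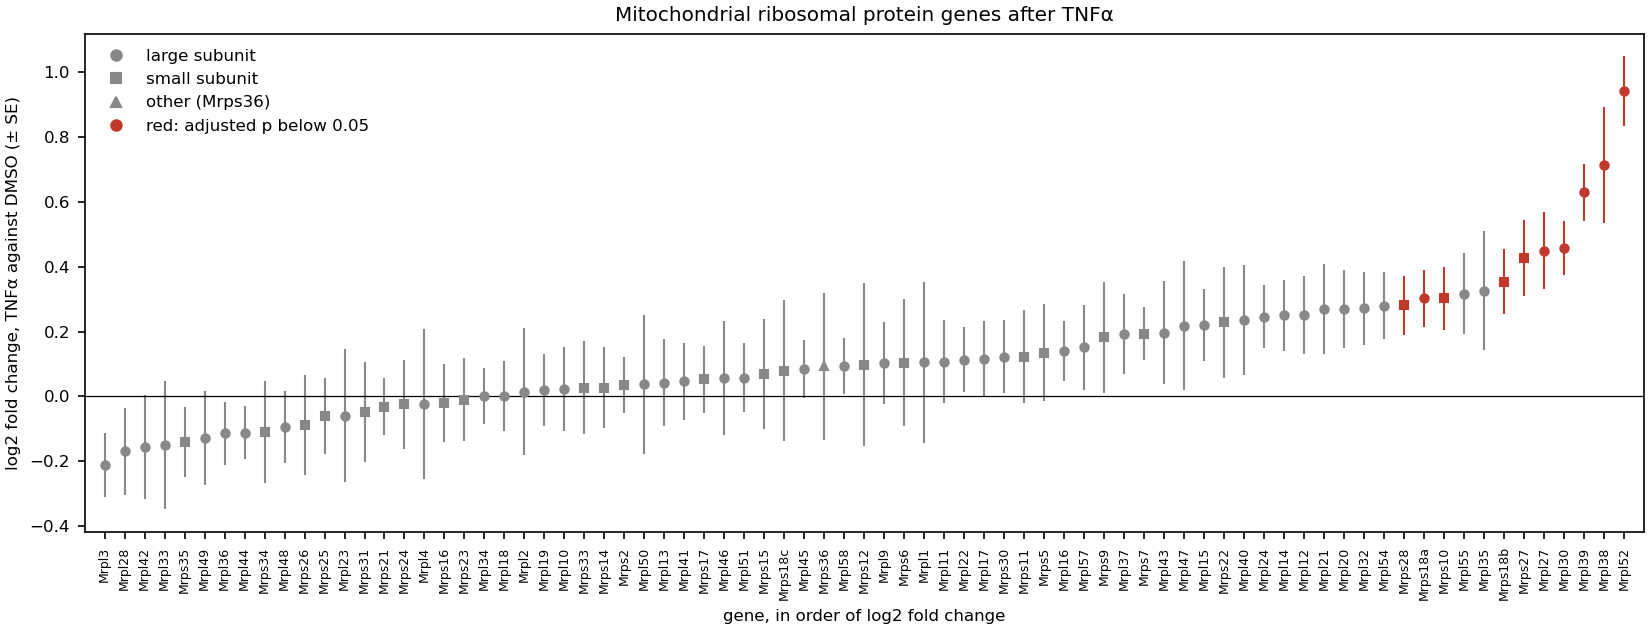
Log2 fold change of TNFα against DMSO (4 libraries each) for each of the 77 members, ± SE, in order of size, with circles for the large subunit, squares for the small subunit and red for an adjusted p below 0.05. The 10 red genes all lie above 0, and the other members lie between -0.21 (Mrpl3) and 0.33 (Mrpl35).

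Mrpl52 (ENSMUSG00000010406, chr14:54426909-54429756, plus strand) encodes a large subunit protein that is found only in mitochondrial ribosomes. Its levels, in order of replicate number, were 86.1, 98.2, 85.7 and 113 CPM in DMSO and 154, 162, 184 and 202 CPM in TNFα. They were 125, 133, 145 and 146 CPM in TMP195+TNFα and 134, 126, 139 and 126 CPM in TPCA-1+TNFα. All TNFα libraries lay above all others, all DMSO libraries lay below, and the inhibitor groups lay in between and overlapped each other. The mean went from 95.7 ± 12.8 CPM to 175 ± 21.5 (SD, n = 4) with TNFα, a log2 fold change of 0.94 ± 0.11 (SE; adjusted p = 4.72e-06); changes below are given in the same form.

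Mrpl39 (ENSMUSG00000022889, chr16:84717576-84735742, minus strand), another mitochondria-specific protein of the large subunit, stood at 63.9, 72.6, 65.5 and 61.1 CPM in DMSO and 102, 91.03, 102 and 92.5 CPM in TNFα. With TMP195 its levels were 104, 109.7, 106 and 99.9 CPM and with TPCA-1 82.2, 73.6, 83.04 and 79.8 CPM. DMSO and TPCA-1+TNFα each stood apart from every other group, with TPCA-1+TNFα between DMSO and the others, while TNFα and TMP195+TNFα overlapped. The change with TNFα was 0.63 ± 0.09, adjusted p = 3.59e-05.

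Mrpl38 (ENSMUSG00000020775, chr11:116131817-116138868, minus strand), a further mitochondria-specific protein of the large subunit, stood at 26.3, 34.02, 25.7 and 31.9 CPM in DMSO and 38.7, 42.6, 46.5 and 56.9 CPM in TNFα. It reached 44.9, 51.97, 51.3 and 68.4 CPM in TMP195+TNFα and 38.8, 76.6, 49.96 and 56.3 CPM in TPCA-1+TNFα. No DMSO library reached any of the others, and the 3 groups with TNFα overlapped widely, with TPCA-1+TNFα replicate 2 the highest of all. The change with TNFα was 0.72 ± 0.18, adjusted p = 0.00671.

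Mrpl30 (ENSMUSG00000026087, chr1:37890477-37898535, plus strand), a bacterial-family protein of the large subunit, stood at 103, 109, 98.2 and 96.1 CPM in DMSO and 139, 126, 137 and 129.5 CPM in TNFα. It stood at 142, 133, 134 and 136 CPM in TMP195+TNFα and 102, 110.4, 102 and 94.99 CPM in TPCA-1+TNFα. The libraries fell into a lower range for DMSO and TPCA-1+TNFα and a higher range for TNFα and TMP195+TNFα, with no overlap between them. The change with TNFα was 0.46 ± 0.08, adjusted p = 0.000557.

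**Figure D3:**
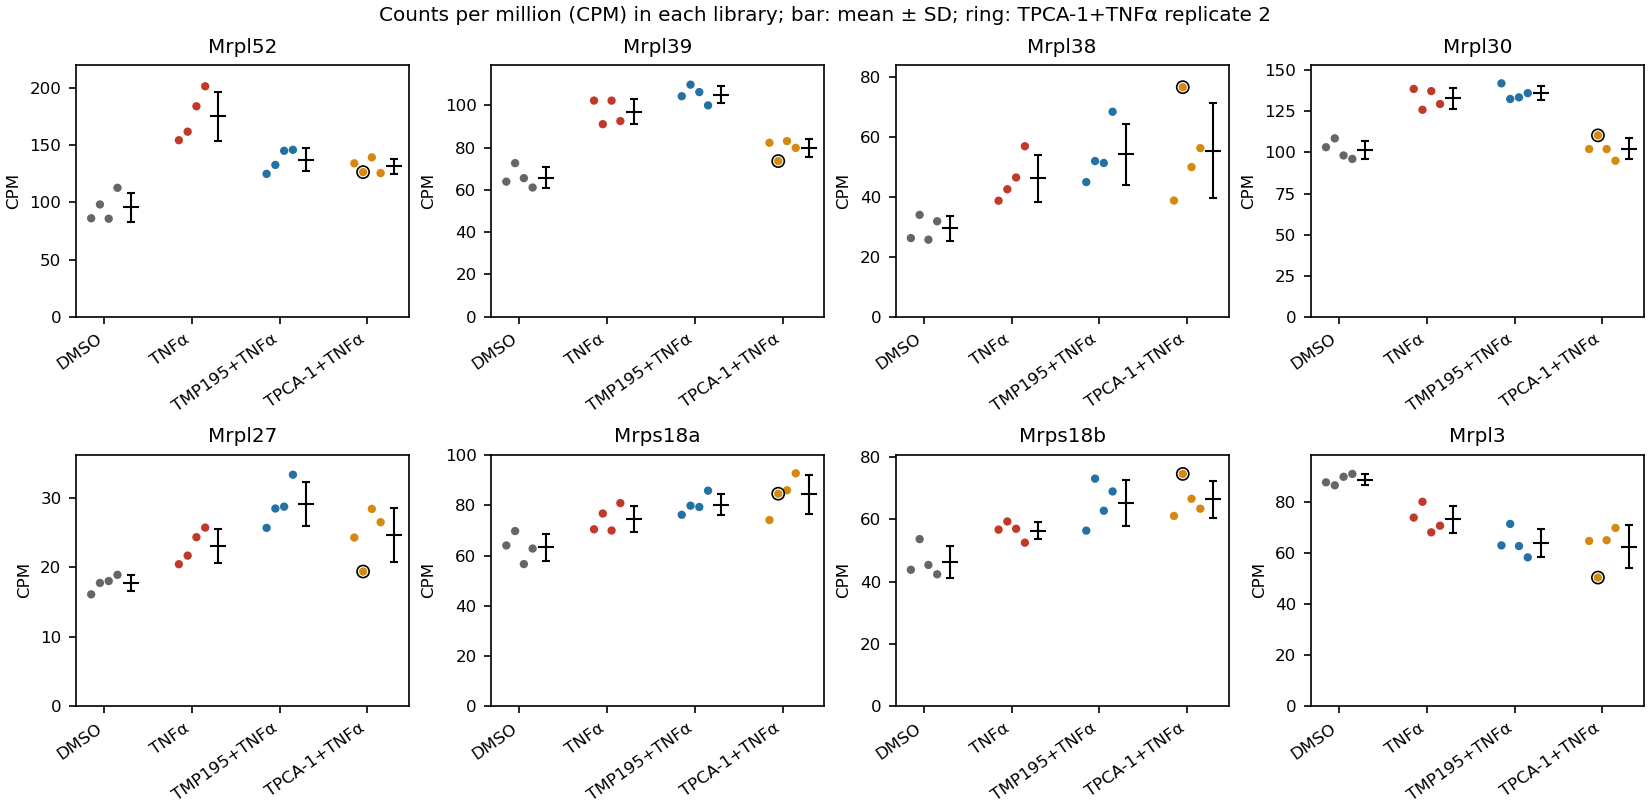
CPM in each library for 8 members, with points in order of replicate number, bars for mean ± SD (n = 4 per group) and a ring around TPCA-1+TNFα replicate 2. Mrpl52, Mrpl39, Mrpl38, Mrpl27 and Mrps18a are lower in every DMSO library than in any TNFα library, Mrpl30 returns to the DMSO range with TPCA-1, and Mrpl3 is highest in DMSO.

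Mrpl27 (ENSMUSG00000024414, chr11:94653767-94660089, plus strand), a bacterial-family protein close to the site of peptide bond formation, stood at 16.1, 17.7, 17.99 and 18.9 CPM in DMSO and 20.4, 21.7, 24.3 and 25.7 in TNFα (0.45 ± 0.12, adjusted p = 0.00982). These groups did not overlap, but with reads counted without regard to strand the adjusted p was 0.166. Mrps27, a mitochondria-specific small subunit protein, went from 13.2 to 13.4 CPM to 16 to 19.2 CPM (0.43 ± 0.12, adjusted p = 0.0118), again without overlap. Mrps10, of a bacterial family in the small subunit, stood at 32.2 to 39.3 and 38.2 to 42 CPM (0.30 ± 0.10, adjusted p = 0.0307) and Mrps28, a mitochondrial small subunit protein, at 17.9 to 21.3 and 20.9 to 24.1 CPM (0.28 ± 0.09, adjusted p = 0.0324). In these last genes the groups overlapped. The call of Mrps10 was lost without DMSO 1, 3 or 4 or TNFα 1, 2 or 3 (adjusted p up to 0.0857, the value for TNFα 3), and that of Mrps28 without DMSO 1, 3 or 4 or TNFα 3 or 4 (adjusted p up to 0.105, the value for DMSO 1).

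The genes Mrps18a, Mrps18b and Mrps18c encode 3 relatives of 1 bacterial protein: Mrps18a sits in the large subunit and the other two in the small subunit. Mrps18a stood at 64.02, 69.8, 56.6 and 62.8 CPM in DMSO and 70.5, 76.8, 69.98 and 80.9 in TNFα, and Mrps18b at 43.8, 53.7, 45.4 and 42.4 and 56.7, 59.3, 57 and 52.5. The Mrps18a groups did not overlap, and of the Mrps18b groups the highest DMSO library lay above the lowest TNFα library. Both genes rose with TNFα, Mrps18a by 0.30 ± 0.09, adjusted p = 0.0181 and Mrps18b by 0.35 ± 0.10, adjusted p = 0.0151. Mrps18c stood at 25.3 to 41.4 CPM in DMSO and 27.9 to 45.7 in TNFα, overlapping widely, and did not pass (0.08 ± 0.22, adjusted p = 0.851). The difference between the relatives was not tested. The call of Mrps18a was lost without DMSO 3 or TNFα 4 (adjusted p = 0.072 and 0.0514 in that order).

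Replicate numbers in the labels went with shared deviations in this comparison. Blocking on the number, 16 members were higher and 0 lower, the same 10 among them, with 15.1% of all genes higher and 16.9% lower. The 6 added were Mrpl14, Mrpl15, Mrpl24, Mrpl35, Mrpl54 and Mrpl55. Without TPCA-1+TNFα replicate 2, which enters only through the shared estimate of spread, 13 were higher and 0 lower (12.8% and 14.0% of all genes). Calls of 4 members, Mrpl30, Mrpl38, Mrpl39 and Mrpl52, held in all 24 other settings tried. Without the low-count filter the calls of Mrps10, Mrps18a, Mrps18b, Mrps27 and Mrps28 were lost (adjusted p = 0.141, 0.103, 0.0561, 0.0512 and 0.206). The summed neutrophil markers, nearly all of it S100a8, were higher in every TNFα library than in every DMSO library. Of the 8 macrophage markers 1 was higher and 3 lower with TNFα (median -0.05). The part of these markers in the results was not tested. In bulk RNA, fewer cells of a type and less RNA per cell cannot be told apart.

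The second comparison asks how TMP195 changed TNFα-stimulated cells. Only Mrpl52 passed the test, and it was lower: its mean was 137 ± 10.2 CPM with TMP195 and 175 ± 21.5 CPM with TNFα alone (SD, n = 4), and the ranges of 125 to 146 and 154 to 202 CPM did not overlap (-0.41 ± 0.11, adjusted p = 0.0298). In all, 0 of 77 members were higher and 1 lower (1.30%), with 2.95% of all genes higher and 3.0% lower, so the members' shares were below those of all genes. At an unadjusted p below 0.05, 1 was higher and 5 lower. The call of Mrpl52 was lost without TMP195+TNFα 1, TMP195+TNFα 2, TNFα 3 or TNFα 4 (adjusted p = 0.0805, 0.0919, 0.0814 and 0.0929 in that order), and also without the low-count filter (0.0606). Of the 8 macrophage markers 0 were higher and 1 lower in this comparison (median -0.38), and their part in it was not tested. The members' median log2 fold change was -0.03, against 0.02 for all genes, and all 77 lay within 0.5 of 0, as did 85.2% of all genes.

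Blocking on the replicate number gave 1 member that was higher and 4 that were lower (6.91% and 6.56% of all genes). Mrpl27 was the higher one and Mrpl20, Mrpl52, Mrpl54 and Mrps21 the lower ones. Without TPCA-1+TNFα replicate 2 the lower ones were Mrpl52, Mrpl54 and Mrps21 and 0 were higher (4.0% of all genes higher, 4.16% lower). DESeq2 called 0 higher and 3 lower.

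The third comparison asks how TPCA-1 changed TNFα-stimulated cells. Here Mrpl30, Mrpl52, Mrpl39, Mrpl22 and Mrps5 were lower and Mrpl34 and Mrps34 higher. That is 2 of 77 members higher (2.60%) and 5 lower (6.49%), beside 9.67% and 9.72% of all genes, so both shares were below the background. The members' median was 0.06 and that of all genes 0.02. Mrpl30 stood at -0.40 ± 0.08, adjusted p = 0.00302, Mrpl52 at -0.43 ± 0.11, adjusted p = 0.00819 and Mrpl39 at -0.30 ± 0.09, adjusted p = 0.0219. This comparison shares the TNFα libraries with that of TNFα and DMSO. The call of Mrpl39 was lost without TNFα 1, TNFα 3 or TPCA-1+TNFα 4 (adjusted p = 0.0753, 0.0659 and 0.0505 in that order).

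Mrpl22, a bacterial-family protein that lines the peptide exit tunnel, stood at 23.97, 25.9, 25.3 and 22.1 CPM with TNFα alone and 19.4, 20.4, 19.1 and 16.6 CPM with TPCA-1. Mrpl34, a small bacterial-family protein of the large subunit, stood at 31.8, 31.5, 34.3 and 37.1 CPM and 41.4, 45.5, 41.5 and 44.6 CPM. Neither gene overlapped between these groups, and their changes were -0.39 ± 0.10, adjusted p = 0.0125 and 0.34 ± 0.09, adjusted p = 0.011. With only these groups fitted both calls were lost (adjusted p = 0.067 and 0.0667), as were those of Mrpl39, Mrps5 and Mrps34 (0.0894, 0.123 and 0.0641). Without the low-count filter Mrpl34, Mrpl39 and Mrps34 were lost (0.131, 0.0784 and 0.0637). Mrps5, a bacterial-family protein by the mRNA channel of the small subunit, stood at 19.6, 23.1, 17.2 and 16.4 CPM and 17.1, 9.75, 12.9 and 15.4 CPM, with the lowest value in TPCA-1+TNFα replicate 2. Mrps34, a mitochondria-specific small subunit protein, stood at 16.2, 14.2, 17.4 and 21.2 CPM and 20.3, 29.4, 23.98 and 25.1 CPM, with the highest value in the same library. Both overlapped between the groups (-0.47 ± 0.15, adjusted p = 0.0402 and 0.49 ± 0.16, adjusted p = 0.0379).

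Without TPCA-1+TNFα replicate 2 the calls of Mrps5 (adjusted p = 0.0968) and Mrps34 (adjusted p = 0.115) were lost. The other 5 held, leaving 1 higher and 4 lower (7.20% and 8.09% of all genes) and a median of 0.01. The call of Mrps5 was lost without DMSO 1, TMP195+TNFα 3, TNFα 1, 2 or 3 or TPCA-1+TNFα 2, 3 or 4 (adjusted p up to 0.134, the value for TNFα 2), and that of Mrps34 without TNFα 1, 2 or 3 or TPCA-1+TNFα 2, 3 or 4 (adjusted p up to 0.125, the value for TNFα 2). With reads counted without regard to strand Mrps34 had an adjusted p of 0.36. Replicate 2 gave the highest value of its group in 36 of 77 members and the lowest in 21, and replicate 1 the highest in 25 and the lowest in 31. Replicates 3 and 4 gave the highest in 8 members each and the lowest in 12 and 13. Of the 8 macrophage markers 4 were lower and 0 higher with TPCA-1 than with TNFα alone (median -0.66), also without replicate 2 (median -0.55). Pecam1 was higher in every TPCA-1+TNFα library than in any other. The part of these markers in the results was not tested.

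The inhibitor groups were also compared with DMSO. These comparisons share the DMSO libraries with each other and with that of TNFα, so their values are given side by side and not as separate evidence. With TMP195 and TNFα 11 members (14.3%) were higher than in DMSO and 2 (2.60%) lower, beside 13.6% and 13.9% of all genes, with a median of 0.07 against 0.00. Of the higher calls that of Mrpl32 was lost in 17 of the 24 other settings, Mrpl24 in 5 and Mrpl14 in 4. The remaining higher calls held in all 24. With TPCA-1 and TNFα 20 (26.0%) were higher and 2 (2.60%) lower, beside 14.8% and 15.5% of all genes, with a median of 0.13 against 0.01. Without replicate 2 of TPCA-1+TNFα the counts were 14 and 2 for TMP195 (15.1% and 15.6% of all genes) and 17 and 2 for TPCA-1 (12.1% and 14.2% of all genes). With the replicate block, TMP195 gave 21 and 4 (17.9% and 18.8% of all genes). Of the 8 macrophage markers 1 was higher and 3 lower with TMP195 against DMSO, and 0 and 4 with TPCA-1. Their part in these comparisons was not tested.

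Among the genes already described, Mrpl38 stood at 0.72 ± 0.18 with TNFα, 0.89 ± 0.18 with TMP195 and TNFα and 0.95 ± 0.18 with TPCA-1 and TNFα, all on the log2 scale against DMSO. Mrpl52 stood at 0.94, 0.54 and 0.51 in the same order, and Mrpl39 at 0.63, 0.69 and 0.33. Mrps18b stood at 0.35, 0.51 and 0.57, and Mrps18a at 0.30, 0.36 and 0.46. Mrpl27 stood at 0.45, 0.73 and 0.54. With TPCA-1 the call of Mrpl27 was lost with reads counted without regard to strand (adjusted p = 0.0901) and that of Mrpl39 without the low-count filter (0.0968). Mrpl30 passed with TMP195 (0.44 ± 0.08, adjusted p = 0.000706) but stood at 0.06 ± 0.08, adjusted p = 0.617 with TPCA-1.

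In the other direction, Mrpl3 (ENSMUSG00000032563, chr9:105053239-105079888, plus strand), a bacterial-family protein of the large subunit core, was lower than in DMSO with either inhibitor and TNFα. Its levels were 87.7, 86.5, 89.9 and 90.98 CPM in DMSO and 73.9, 80.1, 68.1 and 70.7 CPM in TNFα. They were 62.96, 71.4, 62.7 and 58.3 CPM with TMP195 and 64.7, 50.3, 64.99 and 69.8 CPM with TPCA-1, where replicate 2 was the lowest. Every DMSO library lay above every other library. The fall passed with TMP195 (-0.46 ± 0.10, adjusted p = 0.00186) and TPCA-1 (-0.45 ± 0.10, adjusted p = 0.0022) and held in all 24 other settings. With TNFα alone against DMSO the gene stood at -0.21 ± 0.10, adjusted p = 0.143. In the same fit Mrpl3 was called in neither comparison of an inhibitor with TNFα alone. By limma it was called lower with TNFα against DMSO, and also with TMP195 against TNFα alone. Mrps21, the member with the highest mean level per length, was lower with TMP195, at 86.9 to 96.7 CPM against 106 to 122 (-0.30 ± 0.09, adjusted p = 0.0148). This call was lost without TMP195+TNFα 4 (adjusted p = 0.0514) and without the low-count filter (0.0985). With TMP195 against TNFα alone Mrps21 did not pass in the fit without a block (adjusted p = 0.0793). Mrpl22 was lower with TPCA-1 (-0.28 ± 0.10, adjusted p = 0.0496), a call lost without DMSO 1, 2 or 3, TMP195+TNFα 2, 3 or 4, TNFα 1, 2 or 3 or TPCA-1+TNFα 3 or 4 (adjusted p up to 0.143, the value for TPCA-1+TNFα 4).

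Further members were higher than DMSO with TPCA-1 and TNFα. Mrpl24 (0.43 ± 0.10, adjusted p = 0.00265), a bacterial-family protein of the large subunit, was one, and its levels of 66.8 to 83.7 CPM lay above the 48.8 to 58.7 CPM of DMSO. Mrpl12, which forms the stalk that recruits translation factors, stood at 49.3, 72.5, 55.3 and 61.3 CPM against 37.7, 49.1, 45.6 and 48.2 (0.45 ± 0.12, adjusted p = 0.00995), with replicate 2 the highest. Mrpl58, which encodes a peptidyl-tRNA hydrolase that became part of the large subunit, stood at 30.7 to 37.3 CPM against 27.5 to 28.8 (0.27 ± 0.09, adjusted p = 0.0268). Mrps12, of the decoding centre, had 9.005 to 15.2 CPM against 4.85 to 11.5 (0.69 ± 0.25, adjusted p = 0.0486), and these ranges overlapped. The calls of Mrps12, Mrpl43, Mrpl57 and Mrpl58 were lost without replicate 2 (adjusted p = 0.0754, 0.167, 0.0752 and 0.0684), and Mrpl32 was gained. Counting replicate 2, Mrps12 lost its call without any of 11 single libraries, Mrpl43 of 9, Mrpl58 of 5 and Mrpl57 of 2 (highest adjusted p = 0.153, 0.167, 0.0792 and 0.0755). With only these groups fitted the calls of Mrpl22, Mrpl43, Mrpl57, Mrpl58 and Mrps12 were lost (adjusted p = 0.157, 0.0735, 0.0554, 0.093 and 0.0566). Those of Mrps7 and Mrps27 were lost too (0.065 and 0.0775). Without the low-count filter the calls of Mrpl22, Mrpl43 and Mrpl58 were lost (0.154, 0.055 and 0.237). So were those of Mrpl14, Mrpl34, Mrpl39, Mrpl45, Mrps7, Mrps27 and Mrps28 (0.082, 0.091, 0.0968, 0.0746, 0.155, 0.164 and 0.0667). With reads counted without regard to strand Mrpl22, Mrpl27 and Mrps27 were lost (0.0532, 0.0901 and 0.0961). Of the 22 calls in this comparison, higher and lower together, 9 held in all other settings. In every fit that left out a single library 15 held. Whether TPCA-1 differed from TNFα alone is what the third comparison tested, and none of Mrpl24, Mrpl12, Mrpl58 and Mrps12 passed there (adjusted p = 0.19, 0.272, 0.171 and 0.112).

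The inhibitors were compared directly at the doses used, which differ between them. With TPCA-1, Mrpl54, Mrpl45, Mrpl34, Mrpl49, Mrps6 and Mrps23 were higher than with TMP195, and Mrpl30, Mrpl39, Mrpl22, Mrps10, Mrps5 and Mrps22 were lower. These are 6 members higher (7.79%) and 6 lower (7.79%), beside 12.6% and 13.1% of all genes, with 12 and 10 at an unadjusted p below 0.05. The median was 0.06 against 0.00. Without TPCA-1+TNFα replicate 2 the counts were 4 and 3 (10.8% and 11.7% of all genes), and the calls of Mrpl49, Mrps5, Mrps10, Mrps22 and Mrps23 were lost (adjusted p = 0.103, 0.0799, 0.053, 0.102 and 0.113). Leaving out other single libraries also ended calls: that of Mrpl49 without TMP195+TNFα 1, 3 or 4 or TPCA-1+TNFα 2 (adjusted p up to 0.103, the value for TPCA-1+TNFα 2), of Mrps5 without TMP195+TNFα 2 or 3 or TPCA-1+TNFα 2 or 3 (adjusted p up to 0.106, the value for TMP195+TNFα 2) and of Mrps10 without TMP195+TNFα 2 or 3 or TPCA-1+TNFα 2 (adjusted p up to 0.0695, the value for TMP195+TNFα 2). That of Mrps22 was lost without DMSO 1 or 3, TMP195+TNFα 1, 2 or 3, TNFα 2 or 3 or TPCA-1+TNFα 2, 3 or 4 (adjusted p up to 0.153, the value for TMP195+TNFα 2) and that of Mrps23 without DMSO 1 or 2, TMP195+TNFα 1, 2, 3 or 4, TNFα 2 or 3 or TPCA-1+TNFα 2, 3 or 4 (adjusted p up to 0.113, the value for TPCA-1+TNFα 2).

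Mrpl54, a mitochondria-specific protein of the large subunit, stood at 36.1, 38.8, 39.4 and 39.8 CPM with TMP195 and 45.6, 58.1, 52.8 and 56.1 CPM with TPCA-1 (0.50 ± 0.10, adjusted p = 0.00185). Mrpl45, which helps to hold the ribosome at the inner membrane, stood at 104, 100.3, 91.2 and 87.3 CPM and 132, 130.2, 114 and 126 CPM (0.42 ± 0.09, adjusted p = 0.00218). In both genes every TPCA-1+TNFα library lay above every TMP195+TNFα library, and the calls held in all 24 other settings. Mrpl30 (-0.38 ± 0.08, adjusted p = 0.00315) and Mrpl39 (-0.36 ± 0.09, adjusted p = 0.00534) were lower without overlap and also held in all 24. Mrps6, of a bacterial family in the small subunit, had 7.59 to 11.2 and 11.8 to 16.01 CPM (0.61 ± 0.20, adjusted p = 0.0317), a call lost without TMP195+TNFα 2, 3 or 4 or TPCA-1+TNFα 1 or 4 (adjusted p up to 0.0896, the value for TMP195+TNFα 3). Mrpl22 lost its call without TMP195+TNFα 2, TMP195+TNFα 3 or TPCA-1+TNFα 4 (adjusted p = 0.0556, 0.0675 and 0.0757 in that order). With only these groups fitted the calls of Mrpl22, Mrpl49, Mrps5, Mrps10 and Mrps22 were lost (adjusted p = 0.0831, 0.0712, 0.0895, 0.0862 and 0.0603), and without the low-count filter those of Mrpl22, Mrpl34, Mrpl49, Mrps10 and Mrps23 (0.0805, 0.0622, 0.0503, 0.079 and 0.107). With DESeq2's size factors Mrps22 was lost (0.0519). Of the macrophage markers 1 was higher and 3 lower with TPCA-1 than with TMP195, and their part in this comparison was not tested.

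**Figure D4:**
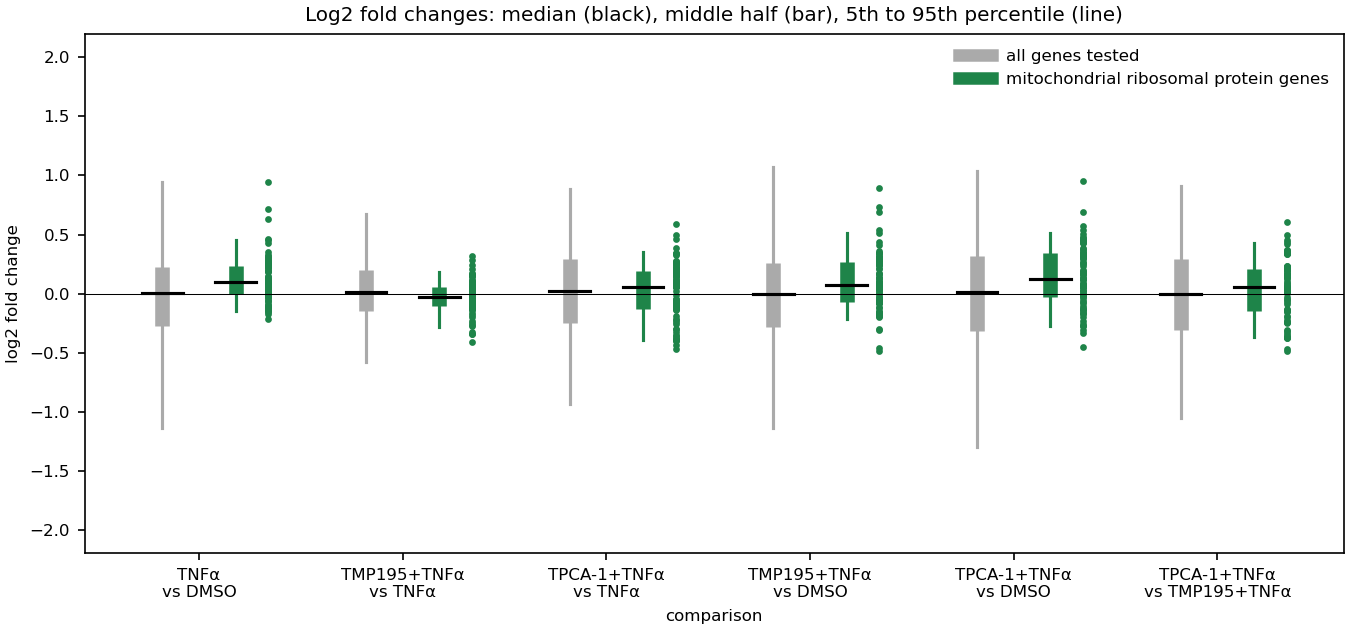
Log2 fold changes in the 6 comparisons for all 12612 genes tested (grey) and the 77 members (green), with the median as a black line, the middle 50% as a bar, the 5th to 95th percentile as a thin line and each member as a point. The members spread less than all genes in each comparison, and their medians lie between -0.03 and 0.13.

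Changes of members were small beside those of all genes tested, which were not matched to the members for level. The median size of the log2 fold change, without its sign, was 0.115 for members and 0.248 for all genes with TNFα against DMSO. In the direct comparison of the inhibitors these values were 0.201 and 0.301. With TNFα 74 of 77 members stayed within 0.5 of 0 on the log2 scale, as did 74.0% of all genes, and the 3 beyond it were Mrpl52, Mrpl38 and Mrpl39. The biological coefficient of variation estimated by edgeR had a median of 0.127 over members (0.0875 to 0.247) and 0.154 over the 8282 genes in the members' range of level. Over all 6 comparisons 45 members, among them Mrpl23, Mrps15, Mrps18c, Mrps25, Mrps30, Mrps35 and Mrps36, were called in none by the fit without a block. Mrpl28, Mrpl33 and Mrps31, also called in none by this fit, had fold changes among the 2 highest or 2 lowest of a comparison: Mrpl28 stood at -0.17 ± 0.13, adjusted p = 0.427 with TNFα, Mrpl33 at -0.49 ± 0.20, adjusted p = 0.0792 with TMP195 against DMSO and Mrps31 at 0.32 ± 0.15, adjusted p = 0.27 with TMP195 against TNFα alone. With the replicate block, TMP195 against DMSO gave calls for Mrpl33 (-0.48 ± 0.14, adjusted p = 0.0136), Mrpl28 (-0.29 ± 0.08, adjusted p = 0.0107) and Mrps30 (0.27 ± 0.10, adjusted p = 0.0472). Mrps30 stood at 0.12 ± 0.11, adjusted p = 0.502 and Mrps36 at 0.09 ± 0.23, adjusted p = 0.828 with TNFα.

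Some neighbours of the members moved more than the members. Mmp14, which encodes a membrane-bound matrix metalloproteinase, begins 1856 bases after the end of Mrpl52 on the same strand (chr14:54431612-54445364). It had 40.8 ± 11.1 CPM in DMSO, 132 ± 24.4 in TNFα, 106 ± 10.7 in TMP195+TNFα and 26.7 ± 10.9 in TPCA-1+TNFα (SD, n = 4). TNFα raised it (log2 1.77, adjusted p = 3.43e-05), and with TPCA-1 it was lower than with TNFα alone (-2.33, adjusted p = 4.68e-06) and below the DMSO mean, whereas Mrpl52 stayed above every DMSO library. Mitd1, which encodes a protein of cell division and starts 66 bases from Mrpl30 in the opposite direction, had 12.3 ± 3.24, 11.9 ± 3.44, 12.7 ± 4.30 and 4.19 ± 0.603 CPM in the same order. It did not pass with TNFα (0.02, adjusted p = 0.967) but was lower with TPCA-1 than with TNFα alone (-1.53, adjusted p = 0.00112), as Mrpl30 was (-0.40). Eme1, a DNA repair endonuclease subunit whose start lies 197 bases from that of Mrpl27 and whose body overlaps it on the other strand, fell with TNFα (-1.47, adjusted p = 0.0002) while Mrpl27 rose (0.45). Whether reads or control elements of these neighbours bear on the members' values was not tested.

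**Figure D5:**
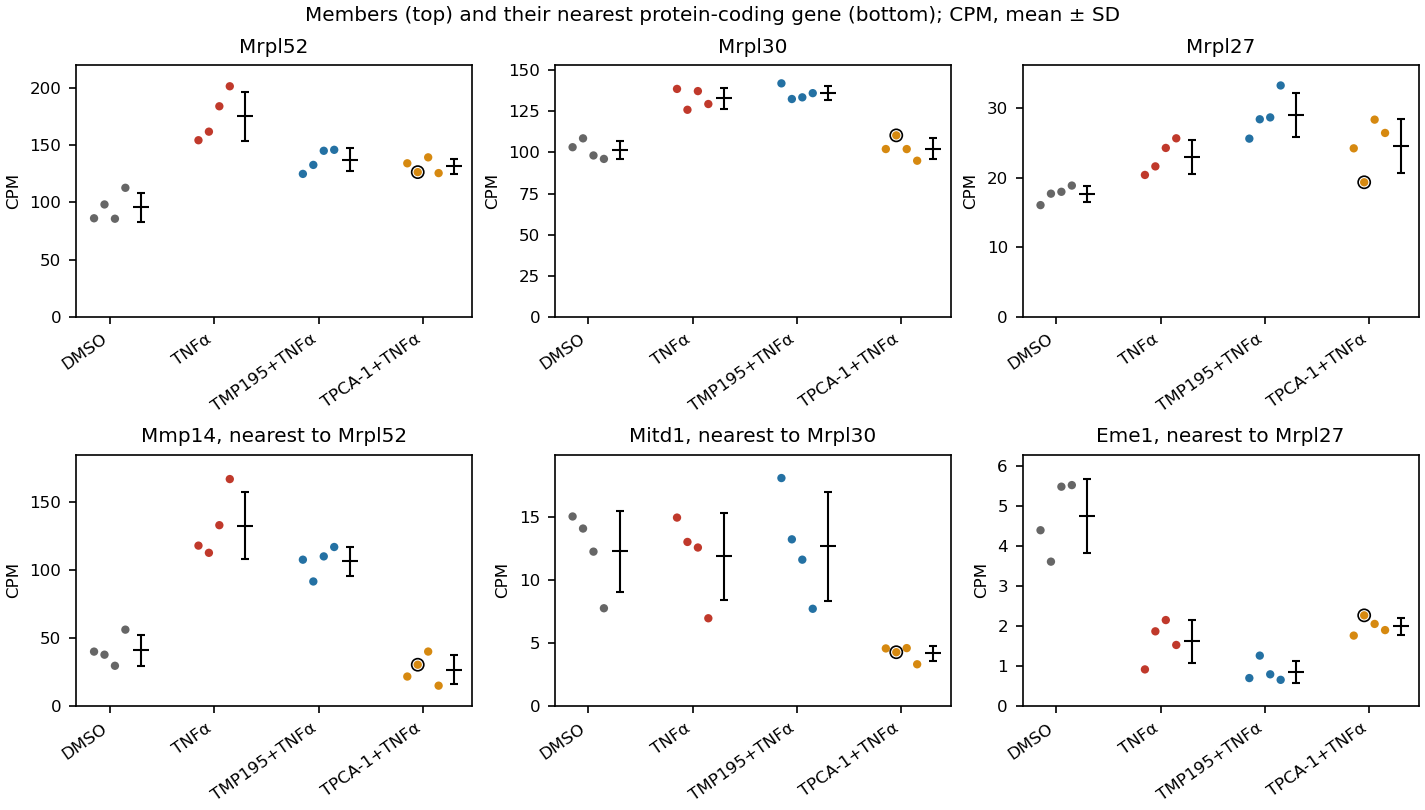
CPM in each library for Mrpl52, Mrpl30 and Mrpl27 (top) and for the protein-coding gene with the nearest start (bottom), with bars for mean ± SD (n = 4 per group) and a ring around TPCA-1+TNFα replicate 2. Mmp14 lies below its DMSO mean with TPCA-1 while Mrpl52 does not, Mitd1 has its lowest mean in the TPCA-1 group, and Eme1 is highest in DMSO.

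Lists of other genes of mitochondrial translation were examined in the same fit. Shares of all genes called are those given above for each comparison, and counts within these lists are not read as a result about the lists. Of the 5 mitochondrial ribosomal proteins under other symbols 1 was higher and 0 lower with TNFα: Dap3, a GTP-binding protein of the small subunit (0.28 ± 0.09, adjusted p = 0.0385). With TPCA-1 and TNFα against DMSO Gadd45gip1, a large subunit protein (0.69 ± 0.14, adjusted p = 0.000934), and Dap3 (0.28 ± 0.09, adjusted p = 0.0314) were higher. The call of Dap3 was lost without DMSO 1, 3 or 4 or TPCA-1+TNFα 2 (adjusted p up to 0.108, the value for DMSO 3), and that with TNFα without DMSO 1, 3 or 4, TMP195+TNFα 3 or TNFα 1, 2 or 3 (adjusted p up to 0.118, the value for DMSO 3). Gadd45gip1 was also higher with TPCA-1 than with TNFα alone (0.48 ± 0.13, adjusted p = 0.0192), a call lost without TNFα 2 or TPCA-1+TNFα 3 (adjusted p = 0.0689 and 0.0505 in that order).

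Of 17 translation factors and RNA-binding proteins 2 were higher and 0 lower with TNFα: Mrrf, which recycles ribosomes (0.31 ± 0.09, adjusted p = 0.0211), and Slirp, which stabilises mitochondrial mRNA (0.44 ± 0.15, adjusted p = 0.0473). The call of Mrrf was lost without DMSO 2 or 3 or TNFα 1 (adjusted p up to 0.0726, the value for TNFα 1) and that of Slirp without DMSO 1, 3 or 4, TMP195+TNFα 1 or 3, TNFα 1, 2 or 3 or TPCA-1+TNFα 4 (adjusted p up to 0.14, the value for DMSO 4). Against DMSO 3 were higher and 0 lower with TMP195 (5 and 0 with the replicate block), and 3 and 1 with TPCA-1, with Mrrf the most significant each time (0.38 and 0.56). Of 22 tRNA synthetase and amidotransferase genes 0 were higher and 1 lower with TNFα, 3 and 1 with TMP195 and 5 and 1 with TPCA-1. Without TPCA-1+TNFα replicate 2 these were 3 and 1, 4 and 2, and 3 and 0, and with the replicate block 3 and 2 with TNFα and 6 and 2 with TMP195. The block also raised the share of all genes called higher, from 10.9% to 15.1% with TNFα and from 13.6% to 17.9% with TMP195. Gars, the glycyl-tRNA synthetase of cytosol and mitochondria, stood at 0.54 ± 0.13, adjusted p = 0.00515 with TMP195 and 0.56 ± 0.13, adjusted p = 0.00409 with TPCA-1. Gatc, a subunit of the glutamyl-tRNA amidotransferase, was lower with TNFα (-0.40 ± 0.14, adjusted p = 0.0461), a call lost without DMSO 1, 2 or 3, TMP195+TNFα 1, 2 or 3, TNFα 2, 3 or 4 or TPCA-1+TNFα 3 or 4 (adjusted p up to 0.157, the value for DMSO 1).

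Of 30 assembly and rRNA factors 2 were higher and 1 lower with TNFα. Afg3l2, a subunit of the inner membrane protease that matures Mrpl32, rose most (1.01 ± 0.13, adjusted p = 1.24e-05). It was higher still with TMP195 (0.54 ± 0.12, adjusted p = 0.015 against TNFα alone) and lower with TPCA-1 (-0.57 ± 0.13, adjusted p = 0.0039). The call with TMP195 was lost without TNFα 1 or TNFα 4 (adjusted p = 0.0597 and 0.0527 in that order). Mrpl32 itself stood at 0.27 ± 0.11, adjusted p = 0.0926 with TNFα. Rbfa, an assembly factor of the small subunit, fell with TNFα (-0.35 ± 0.09, adjusted p = 0.0125), a call lost without DMSO 3 (adjusted p = 0.0542). Of 16 regulators of mitochondrial transcription and biogenesis 0 were higher and 1 lower with TNFα, the DNA polymerase subunit gene Polg2 (-0.94 ± 0.20, adjusted p = 0.0019). Of the 13 mitochondrially encoded mRNAs, the templates of this ribosome, 9 were tested. Several were almost absent from the counts: mt-Co3 had a mean of 0.479 CPM, mt-Atp6 0.465 and mt-Co2 0.165, beside mt-Co1 at 26286. The shares of mitochondrially encoded mRNA given above therefore leave these nearly out. By edgeR or DESeq2 0 of the 9 were called in each of the 6 comparisons, which says little about those near the floor. At an unadjusted p below 0.05, edgeR gave 1 lower with TPCA-1 against DMSO and 0 in the other comparisons, and limma called 1 lower with each inhibitor against DMSO. With the replicate block 2 were lower with TMP195 against DMSO, 2 with TPCA-1 against DMSO and 2 with TPCA-1 against TNFα alone, and 0 were called in the other comparisons.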

How the data were processed

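RNA was sequenced from 16 libraries of mouse macrophages, 4 in each of 4 groups. The authors deposited a table of raw counts per gene for each library, in the layout that STAR writes. STAR 2.6.1d and the builds mm10 and GRCm38 are named per the submitters' processing notes, and the annotation release is not given in the sources used here. Of the count columns, the one for the strand opposite to the first read was used: the other strand's column held 3.19% to 3.72% of the counts of both. Lines that name no gene (21.0% to 23.6% of reads, 53.4% in TPCA-1+TNFα replicate 2) were left out. Of 54838 gene identifiers 54809 matched GENCODE M21, which gave symbols and positions.

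The counts were fitted with edgeR 4.0.16 in R 4.3.3: TMM scaling, the filterByExpr filter, 1 quasi-likelihood model of the 4 groups over all 16 libraries, and Benjamini-Hochberg adjustment over the 12612 genes tested with a threshold of 0.05. SE is the size of the log2 fold change divided by the square root of F. Alternatives used limma 3.58.1, DESeq2 1.42.0, other scaling, filtering and counting, a replicate block, and each library left out, 24 settings in all. The script was tested on simulated data. Depth was 7489066 counts in TPCA-1+TNFα replicate 2 and 18562773 to 31596572 in the others, where 3 counts correspond to 0.0949 to 0.401 CPM over all libraries. Libraries of 1 group differed by more than sampling noise (chi-square per gene 13.5 to 73.6 over 24 pairs), so none was counted as a repeat.

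The labels number replicates 1 to 4 in each group. Deviations from the group means correlated in every same-numbered pair of DMSO, TNFα and TMP195+TNFα (above 0.1), so the block is given beside those comparisons. With TPCA-1+TNFα the lowest such correlation was -0.04. Members and lists were chosen with earlier results of these data known. Members described singly were, in each comparison, up to 6 called higher and 6 lower with the smallest adjusted p and the 2 highest and 2 lowest fold changes, the 3 highest and 3 lowest levels per length, members next to the 1 CPM limit, and Mrps18a, Mrps18b, Mrps18c, Mrps30, Mrps36, Mrpl58, Mrpl12 and Mrps12. Other members, such as Mrps28, are named where a call or a setting turns on them, after their values were seen. Of the other lists, at most 3 called genes per list and comparison could be named, and not all of these are described.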

Additional observations from a re-analysis of the deposited data

Results flagged for a closer look

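In 5 of 144 groups of 4 libraries checked, 1 library stood far from the other 3, and chance alone flags about 1 in 20. Mrps10, of the small subunit, had 39.31 CPM in DMSO replicate 2 against 32.2 to 33.3 in the other DMSO libraries. Mrps12, of the decoding centre, had 13.66 CPM in TMP195+TNFα replicate 4 against 8.49 to 8.82. Mrps18c, a relative of bacterial S18, had 25.27 CPM in DMSO replicate 4 against 38.8 to 41.4. Mrps22, a mitochondria-specific protein of the small subunit, had 29.54 CPM in TPCA-1+TNFα replicate 1 against 21.9 to 22.4. Mrps30, of the large subunit, had 61.77 CPM in TMP195+TNFα replicate 2 against 47.7 to 49.7. TPCA-1+TNFα replicate 2 was not among the 5.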

How the results depend on the processing

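Totals of members called, higher and lower together, were recomputed under 24 other settings. Settings are listed mainly where a total differed by more than 1.5-fold from the fit without a block. Closer totals are mostly left out, such as 28 with the block for TPCA-1 against DMSO (22 without it). With the replicate block the listed totals were 16 for TNFα against DMSO (10 without it), 5 for TMP195 against TNFα alone (1) and 14 for TPCA-1 against TNFα alone (7). For TMP195 against DMSO the total was 25 (13) and for TPCA-1 against TMP195 it was 23 (12). With the block and without TPCA-1+TNFα replicate 2 these 5 totals were 26, 9, 14, 33 and 24. For TPCA-1 against TMP195 the block gave 12 members higher and 11 lower, beside 2304 and 2341 of the 12612 genes tested, and DESeq2 gave 10 and 7 members. Same-numbered libraries correlated at -0.04 to 0.68 over 24 pairs, and the pairs with TPCA-1+TNFα did not all pass 0.1. With limma the totals were 21 for TNFα against DMSO, 5 for TMP195 against TNFα, 11 for TPCA-1 against TNFα and 23 for TMP195 against DMSO. Without a low-count filter they were 5 for TNFα, 0 for TMP195 and 4 for TPCA-1 against TNFα, 12 for TPCA-1 against DMSO and 7 for TPCA-1 against TMP195. TMP195 against TNFα gave 3 with DESeq2 and 2 with RLE size factors. Fitting only the groups compared gave 2 for TPCA-1 against TNFα and 7 for TPCA-1 against TMP195. Leaving out each library gave 7 to 13 for TNFα, 0 to 3 for TMP195 against TNFα, 4 to 13 for TPCA-1 against TNFα, 9 to 16 and 15 to 27 for TMP195 and TPCA-1 against DMSO, and 5 to 18 for TPCA-1 against TMP195. Except for the block with TPCA-1 against TMP195, the totals here stand without the share of all genes. Where shares of all genes with the block are given above, they were also larger than without it. Changes in the totals are therefore not read as a result about the members. The causes were not tested.

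For single members, 1268 values kept direction and side of the threshold, 117 were no longer called, 26 became called and 5 changed sign. Over the fits that each left out 1 library, the log2 fold change with TNFα ran from -0.10 (without TNFα replicate 4) to 0.34 for Mrps12, from -0.063 (without DMSO replicate 4) to 0.20 for Mrps18c and from -0.070 (without TNFα replicate 4) to 0.22 for Mrps36. Mrps12 also stood at -0.076 without DMSO replicate 3 and Mrps18c at -0.054 without TNFα replicate 1. None of these was called. Differences of low members such as Mrpl23 are limited by depth, most of all in TPCA-1+TNFα replicate 2.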
